A study of Mus musculus with 20 samples.

Results

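The genes described here are 45 genes of the cell cycle, 22 that act in DNA replication and 23 that act in mitosis, in mouse skin inflamed by IL-23 and treated with Toll-like receptor (TLR) antagonists. A gene was included when the platform annotation gave at least 1 probe-set its symbol alone. This held for 44 of the 45 genes, of 18194 genes with such a probe-set on the array. Ccnb1, the gene of cyclin B1, is not analysed here, which left 22 replication and 22 mitosis genes with 97 probe-sets. Full-thickness dorsal skin was profiled on 20 Affymetrix mouse4302 arrays, 1 per mouse, from 4 groups of 5 female C57BL/6 mice, which were 6 weeks old when bought and were kept for 1 week before use. Mice of the IMO-8400 group received IL-23 intradermally at 3 µg per day on days 1 to 4 and IMO-8400, an antagonist of TLR7, 8 and 9, subcutaneously at 15 mg/kg on days 4 to 6. The IMO-3100 group received IL-23 and the same dose of IMO-3100, an antagonist of TLR7 and 9, on the same days. Saline mice received IL-23 and then saline in place of an antagonist, and the skin of these 3 groups was taken on day 7. Naïve mice form the 4th group, for which no injection is stated, so that IL-23 and repeated injection cannot be told apart in a comparison with them. The model is an injected cytokine in skin, and an antagonist given from day 4 met skin that had already received IL-23. The design text of the series names 2 doses of 1 antagonist, whereas the sample labels name 2 antagonists, and the labels were followed here. Values are the deposited expression values on the log2 scale, on which a difference of 1 is a doubling.

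Cells copy their genome once in S phase and separate the copies in M phase. Before S phase the helicase of the MCM proteins is loaded at origins by Cdc6 and Cdt1, and it is then activated with the GINS complex and followed by DNA polymerases that the clamp Pcna holds on the DNA. These genes are switched on late in G1 by the E2F transcription factors, which the retinoblastoma protein holds back. Genes of mitosis, such as the kinases Plk1, Aurka and Bub1, reach their highest levels in G2 and M phase, and many of them are controlled through a promoter element called CHR, which the DREAM complex binds in resting cells and the MuvB complex with B-Myb and FoxM1 in dividing cells. In skin, dividing cells are found in the basal layer of the epidermis and in the bulb of the growing hair follicle, and the epidermis of psoriasis, which IL-23 injection models, holds more of them.

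Matches to the E2F element were more frequent in promoters of replication genes, and matches to the CHR element in promoters of mitosis genes. Windows of 250 bases before to 50 bases after the annotated start were at hand for 18 of 22 replication genes and 18 of 22 mitosis genes (RefSeq, GRCm38.p6). An E2F motif, searched on both strands as TTTCGCGC, TTTGGCGC, TTTCCCGC or TTTGCCGC, was present in 9 of the 18 replication genes and in 1 of the 18 mitosis genes, Cdk1, and in 2.6% of all 27025 genes with a window. A CHR motif, searched on both strands as TTTGAA or TTCGAA, was present in 4 of the 18 replication genes and 15 of the 18 mitosis genes, and in 21.7% of all genes. The CCAAT box, searched as CCAAT on both strands, was present in 11 and 16 of them, and in 41.1% of all genes. These are matches of letters in a window, not measured binding sites. The stretches below show the motifs of 3 replication genes, Mcm5, Mcm6 and Rfc3, with E2F matches on either strand in capitals, and of 3 mitosis genes, Cdc20, Cdk1 and Kif11, with CHR matches on either strand in capitals (TTCAAA is TTTGAA on the other strand). They lie before the annotated start, on the strand of each gene, at chr8:75109349-75109467 (plus strand), chr1:128359706-128359865 (minus), chr5:151651209-151651368 (minus), chr4:118437344-118437503 (minus), chr10:69352913-69353072 (minus) and chr19:37376222-37376381 (plus). Comparison lists of other cell cycle genes, described further below, were searched too. An E2F match was present in 8 of 30 further replication factors and in 10 of 31 regulators of G1/S and checkpoints with a window. A CHR match was present in 32 of 46 further mitosis factors and in 8 of the 31 regulators. Whether these motifs have a part in the changes that follow was not tested.
Mcm5: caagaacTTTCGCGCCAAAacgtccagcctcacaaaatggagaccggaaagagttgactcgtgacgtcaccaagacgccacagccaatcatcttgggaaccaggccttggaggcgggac
Mcm6: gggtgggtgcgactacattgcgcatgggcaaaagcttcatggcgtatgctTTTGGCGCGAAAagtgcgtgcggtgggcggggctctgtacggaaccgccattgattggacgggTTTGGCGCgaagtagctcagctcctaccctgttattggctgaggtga
Rfc3: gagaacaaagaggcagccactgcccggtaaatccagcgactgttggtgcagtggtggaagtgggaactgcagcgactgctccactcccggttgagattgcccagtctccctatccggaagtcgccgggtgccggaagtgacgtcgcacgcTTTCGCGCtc
Cdc20: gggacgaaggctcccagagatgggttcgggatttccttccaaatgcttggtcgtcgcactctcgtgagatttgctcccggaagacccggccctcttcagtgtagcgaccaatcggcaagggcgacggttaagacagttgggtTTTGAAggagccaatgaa
Cdk1: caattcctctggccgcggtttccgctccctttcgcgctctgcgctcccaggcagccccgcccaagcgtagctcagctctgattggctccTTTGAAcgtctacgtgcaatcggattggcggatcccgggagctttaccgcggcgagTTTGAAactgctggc
Kif11: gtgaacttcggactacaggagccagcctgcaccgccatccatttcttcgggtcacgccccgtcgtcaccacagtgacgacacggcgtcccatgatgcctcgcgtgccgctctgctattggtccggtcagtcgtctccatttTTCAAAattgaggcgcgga

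Naïve replicate 1 differed from the other naïve mice in nearly every one of these genes. It had the highest naïve value in 21 of 22 replication genes and in 22 of 22 mitosis genes. Its mean over the mitosis genes, each centred on its mean over the 20 arrays, was 1.08, and the other naïve mice lay between -0.38 and 0.07. Over the replication genes it lay at 0.68, followed by 0.24 in naïve replicate 4 and -0.35, -0.44 and -0.40 in replicates 2, 3 and 5. Markers of the growing hair follicle and hair shaft also set naïve mice apart. The mean of 22 such genes ranged from 3.41 to 6.25 in IMO-8400 mice, the highest in replicate 5, from 3.28 to 3.49 in IMO-3100 mice and from 3.19 to 3.42 in saline mice, against 12.86, 11.43, 9.29, 4.91 and 3.87 in naïve replicates 1 to 5. The order of the naïve mice was not the same in the 2 measures, since replicate 2 had the second highest hair mean and low means of replication and mitosis genes. The median SD of a gene among saline mice was 0.16 for replication and 0.26 for mitosis genes, and among naïve mice 0.50 and 0.60. Results against naïve mice are therefore also given without replicate 1. Markers of basal keratinocytes were high on all arrays, with list means between 12.04 and 13.14.

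**Figure D1:**
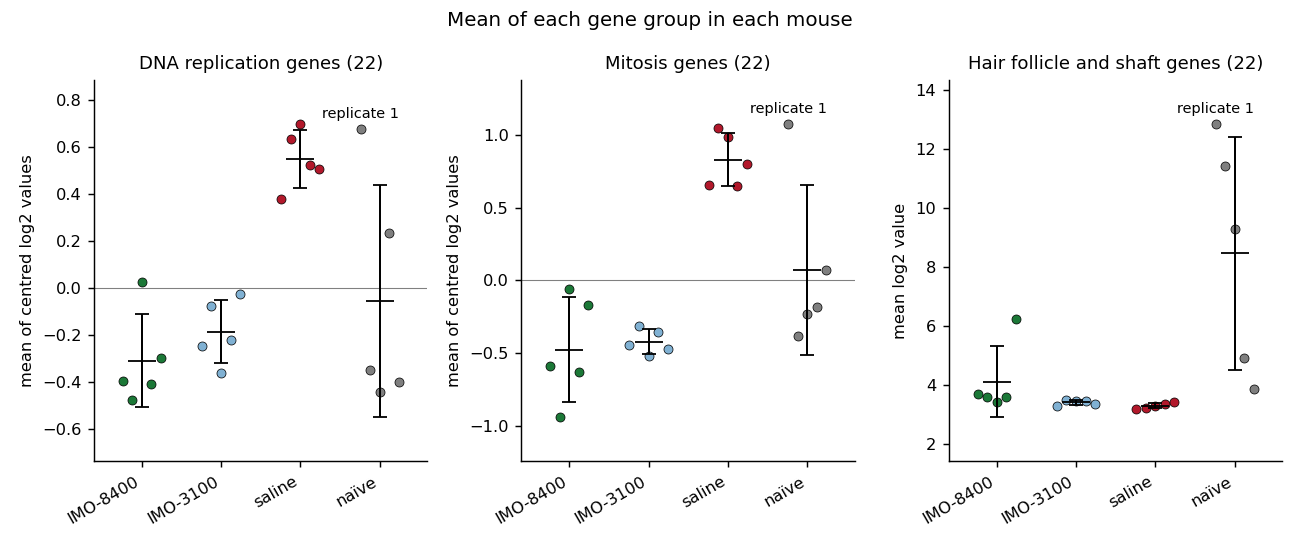
Mean of the 22 replication genes (left) and 22 mitosis genes (middle) in each mouse, each gene centred on its mean over 20 arrays, and mean of 22 hair follicle and shaft genes (right), all on the log2 scale, with group mean and SD (black, n = 5 mice). In both cell cycle classes every saline mouse lay above every antagonist-treated mouse, and naïve replicate 1 lay near the highest saline mouse.

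Saline-treated, IL-23-injected skin had higher levels of replication and mitosis genes than naïve skin, but most of the differences were under 2-fold. A gene was called a differentially expressed gene (DEG) when its brightest probe-set had a false discovery rate (FDR) under 0.05 and a fold change (FCH) over 2. By this rule 5 of 44 genes were higher in saline mice and 0 lower, at a background of 7.58% of all 30960 tested probe-sets called higher, and by the FDR alone 32 were higher, at a background of 20.7%. The first count is close to its background and the second is well above it. Counted over all 85 tested probe-sets of these genes, 16 were called higher, a share above the background of 7.58%. The median log2 fold change was 0.63 for replication genes and 0.81 for mitosis genes, against -0.04 for all tested probe-sets, and the fitted value was above 0 in 43 of 44 genes. Saline and naïve mice did not overlap in 3 of 44 genes, Gins2, Rfc3 and Ccne1, a share below the background of 11.7%. In whole skin, a change in the number of dividing cells and a change in the transcripts of each cell cannot be told apart.

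The replication genes that were DEGs in saline mice encode parts of the replication fork. By the FDR alone 16 of 22 replication genes were higher. Gins2, a subunit of the GINS complex of the active helicase, lay at 10.06, 10.22, 10.39, 10.07 and 10.09 in saline mice, against 9.82, 8.31, 8.96, 9.29 and 8.57 in naïve mice. All saline values lay above all naïve values (log2 fold change 1.18, SE 0.23, adjusted p = 0.00058, with SE for the standard error). Rfc3, a subunit of the clamp loader that places Pcna on DNA, lay at 9.09, 9.71, 9.72, 9.35 and 9.37 in saline mice, against 9.00, 8.03, 8.26, 8.55 and 8.11 in naïve mice. Here too the groups did not overlap (log2 fold change 1.05, SE 0.18, adjusted p = 0.000192). Gins1, another GINS subunit, lay at 10.54, 10.50, 10.63, 10.33 and 10.40 in saline mice, against 10.64, 9.19, 8.93, 9.75 and 8.80 in naïve mice. Naïve replicate 1 was above every saline mouse and the other naïve mice were below them (log2 fold change 1.02, SE 0.26, adjusted p = 0.00387). Rfc3 was just under the FCH threshold without saline replicate 2 (0.99), saline replicate 3 (0.99), naïve replicate 2 (0.97) or naïve replicate 5 (0.98), and Gins1 without saline replicate 3 (0.98), naïve replicate 2 (0.95), naïve replicate 3 (0.89) or naïve replicate 5 (0.86). Only 1 replication gene passed without saline replicate 3, naïve replicate 2 or naïve replicate 5.

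By the FDR alone 16 of 22 mitosis genes were higher in saline mice. Those that were DEGs were the kinase Plk1, which drives entry into mitosis and spindle assembly, and Cenpe, a kinesin that moves chromosomes at the kinetochore. Cenpe lay at 10.21, 10.31, 10.24, 9.62 and 9.84 in saline mice, against 9.82, 7.72, 7.90, 7.86 and 8.46 in naïve mice. The naïve replicate 1 was inside the range of the saline mice and the other naïve mice were at least 1 unit below it (log2 fold change 1.69, SE 0.32, adjusted p = 0.000367). Plk1 lay at 7.01, 8.24, 8.01, 7.37 and 8.37 in saline mice, against 8.04, 5.64, 6.43, 5.44 and 6.31 in naïve mice, and again only naïve replicate 1 overlapped with the saline group (log2 fold change 1.43, SE 0.39, adjusted p = 0.00612). Without naïve replicate 1, 6 replication genes and 12 mitosis genes were DEGs, all higher in saline mice, and without saline replicate 1 or 4, 5 and 4 mitosis genes were. With the hair gene mean in the model as a covariate the counts were 7 and 14, and without the 3 naïve mice with the highest hair means 4 and 9. The background of 7.58% belongs to the fit of all mice without a covariate, not to these refits. Whether the higher counts in these refits are particular to these genes can therefore not be read from them. Hair means ran from 3.19 to 3.42 in saline mice and from 3.87 to 12.86 in naïve mice. The covariate and the group can therefore not be fully told apart in this comparison.

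Common markers of dividing cells differed less. Mki67, which encodes the proliferation antigen Ki-67, lay at 12.80, 12.85, 12.81, 12.92 and 12.83 in saline mice, against 13.15, 12.08, 12.01, 11.90 and 12.05 in naïve mice. It passed the FDR but not the FCH (log2 fold change 0.60, SE 0.19, adjusted p = 0.0177), and naïve replicate 1 was above all saline mice. Top2a, the topoisomerase that untangles sister chromatids, lay at 11.88, 12.25, 12.11, 11.98 and 11.81 in saline mice, against 12.49, 11.31, 11.26, 11.50 and 11.44 in naïve mice (log2 fold change 0.41, SE 0.20, adjusted p = 0.0983). Pcna, the sliding clamp, was the brightest member and lay at 13.67, 13.80, 13.77, 13.68 and 13.67 in saline mice, against 13.78, 13.28, 13.45, 13.58 and 13.27 in naïve mice (log2 fold change 0.25, SE 0.11, adjusted p = 0.0625). Mcm2, a helicase subunit, lay at 10.24, 10.74, 10.63, 10.58 and 10.25 in saline mice, against 10.83, 9.69, 8.99, 10.48 and 9.23 in naïve mice (log2 fold change 0.64, SE 0.27, adjusted p = 0.0567). In each of these the range of the naïve mice included saline values. At the brightest probe-sets the smallest difference in absolute size was that of Rrm2, a subunit of ribonucleotide reductase (0.09), among replication genes and that of Aurkb, the kinase of the chromosomal passenger complex (0.16), among mitosis genes. Tyms, thymidylate synthase, was the gene with a fitted value below 0. It lay below 3, near the lowest value of the arrays, in all antagonist-treated and saline mice and in 3 of 5 naïve mice, so no fold change is given for it, and as it lay at the end of the order of the genes in this comparison and in those with saline, the medians do not turn on it.

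Replication genes were lower after both antagonists than after saline, by less than 2-fold in most of them. After IMO-8400, 6 of 22 replication genes were DEGs and all 6 were lower, and after IMO-3100, 3 of 22 were, again all lower. These counts depended on the probe-set read for a gene and were 11 and 7 with the mean of a gene's probe-sets and 12 and 8 with its dimmest. The background was 3.59% of all tested probe-sets called lower for IMO-8400 and 3.73% for IMO-3100. By the FDR alone 20 and 19 of the 22 were lower, at backgrounds of 13.2% and 14.4%, and in 19 and 18 of them the treated and saline mice did not overlap, at backgrounds of 12.8% and 11.6%. The median log2 fold change was -0.87 with IMO-8400 and -0.78 with IMO-3100, and 0.01 for all tested probe-sets in both. The 2 comparisons use the same saline mice and are not independent of each other.

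Mcm5, a subunit of the MCM helicase, had the largest fall of this class with IMO-8400 when each gene was read at its brightest probe-set. It lay at 8.85, 8.91, 9.63, 9.05 and 8.97 in IMO-8400 mice, against 9.84, 10.60, 10.75, 10.76 and 10.66 in saline mice, with no overlap (log2 fold change -1.44, SE 0.31, adjusted p = 0.00278). In IMO-3100 mice it lay at 9.32, 9.30, 9.54, 9.50 and 10.17, with replicate 5 inside the saline range (log2 fold change -0.96, SE 0.31, adjusted p = 0.0307). Saline replicate 1 had the lowest Mcm5 value of its group. Gins1 lay at 8.95, 8.92, 9.44, 8.91 and 9.37 in IMO-8400 mice (log2 fold change -1.37, SE 0.26, adjusted p = 0.00105) and at 9.36, 9.66, 8.93, 9.49 and 9.62 in IMO-3100 mice (log2 fold change -1.07, SE 0.26, adjusted p = 0.00595), against 10.33 to 10.63 in saline mice. Gins2 lay at 9.07, 8.70, 9.64, 8.63 and 9.09 in IMO-8400 mice (log2 fold change -1.14, SE 0.23, adjusted p = 0.0018) and at 9.09, 9.18, 8.66, 8.90 and 9.18 in IMO-3100 mice (log2 fold change -1.16, SE 0.23, adjusted p = 0.00178), against 10.06 to 10.39 in saline mice. Both GINS subunits were thus below every saline mouse in every antagonist-treated mouse. Without IMO-3100 replicate 3 the fall of Gins1 with IMO-3100 was -0.95 and no longer passed the FCH.

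The DNA polymerases behaved less evenly. Pole, the catalytic subunit of polymerase ε of the leading strand, lay at 8.39, 8.05, 8.72, 8.18 and 7.96 in IMO-8400 mice (log2 fold change -1.19, SE 0.29, adjusted p = 0.00561) and at 8.27, 8.35, 8.00, 8.05 and 8.55 in IMO-3100 mice (log2 fold change -1.21, SE 0.29, adjusted p = 0.00556). Saline mice had 8.77, 9.60, 9.72, 9.58 and 9.59, with replicate 1 far below the others and still above every treated mouse. Pola1, the catalytic subunit of polymerase α, which starts each new strand with primase, lay at 7.12, 7.79, 8.46, 8.15 and 8.02 in IMO-8400 mice and at 8.62, 8.53, 8.66, 8.91 and 8.53 in IMO-3100 mice, against 9.50, 9.26, 9.30, 8.74 and 9.08 in saline mice. It fell with IMO-8400 (log2 fold change -1.27, SE 0.23, adjusted p = 0.000897) and did not pass with IMO-3100, where replicate 4 overlapped with the saline mice (log2 fold change -0.53, SE 0.23, adjusted p = 0.104). Rrm1, the large subunit of ribonucleotide reductase, was the sixth DEG with IMO-8400 (-1.08), and with IMO-3100 its value was -0.94. Without saline replicate 1, 5 replication genes were DEGs with IMO-3100, compared with 3 with all mice.

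Of the other replication genes, the helicase subunits Mcm2, Mcm3, Mcm4, Mcm6 and Mcm7 passed the FDR with both antagonists and stayed under the FCH threshold. The same held for the clamp loader subunits Rfc3 and Rfc4, the primase subunit Prim1, the flap nuclease Fen1 and the ligase Lig1. It also held for the licensing factor Cdt1 and cyclin E1 (Ccne1). The log2 fold changes of all these genes ran from -0.97 (Mcm3) to -0.42 (Mcm7) with IMO-8400. With IMO-3100 they ran from -0.93 (Lig1) to -0.61 (Mcm3 and Ccne1). Mcm2 lay at 9.41, 9.40, 10.07, 9.48 and 9.41 in IMO-8400 mice and at 9.64, 9.67, 9.66, 9.59 and 9.96 in IMO-3100 mice, all below the lowest saline mouse at 10.24. Pcna lay at 13.03, 12.99, 13.38, 13.17 and 13.29 in IMO-8400 mice (log2 fold change -0.55, SE 0.11, adjusted p = 0.00125) and at 13.40, 13.53, 13.18, 13.25 and 13.39 in IMO-3100 mice (log2 fold change -0.37, SE 0.11, adjusted p = 0.0158), with every treated mouse below every saline mouse. The licensing factor Cdc6 passed the FDR with neither antagonist, with values of -0.70 for IMO-8400 (adjusted p = 0.0912) and -0.21 for IMO-3100 (adjusted p = 0.659).

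**Figure D2:**
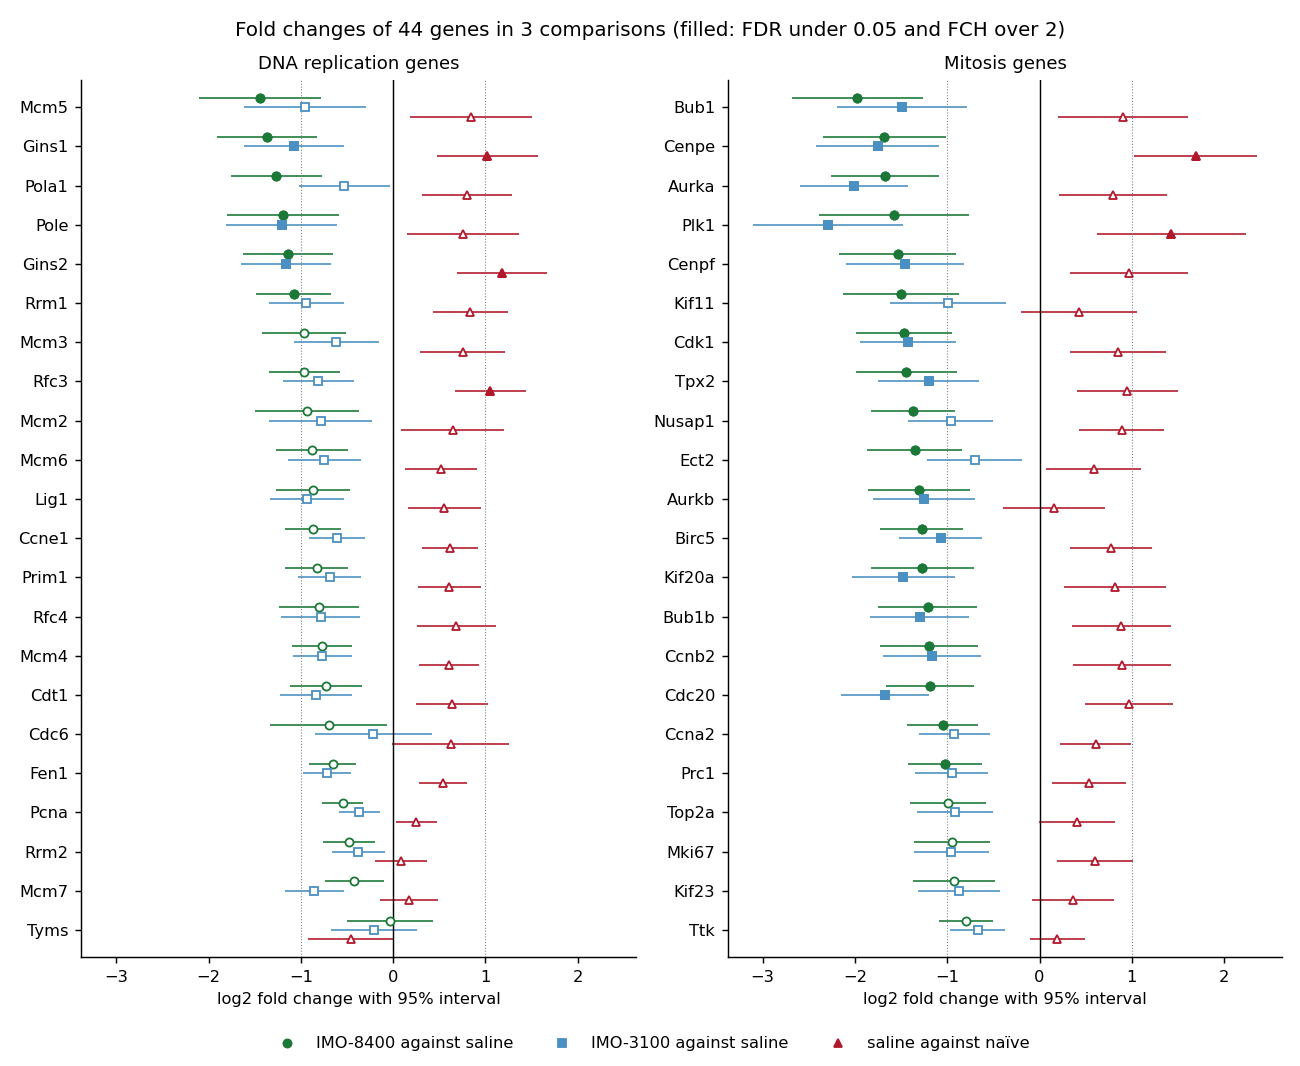
Log2 fold change (x axis, limma estimate with 95% interval) of the 22 replication genes (left) and 22 mitosis genes (right) at their brightest probe-set, for IMO-8400 and IMO-3100 against saline and saline against naïve (n = 5 mice a group), with filled symbols for DEGs and dotted lines at a FCH of 2. All 22 mitosis genes lie below 0 in both antagonist comparisons with intervals that do not reach 0, and the genes are ordered by their value with IMO-8400.

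More mitosis genes than replication genes were DEGs, and their median fold change was larger. With IMO-8400, 18 of 22 mitosis genes were DEGs and with IMO-3100, 13 of 22, all of them lower than in saline mice. The backgrounds were 3.59% and 3.73% of all tested probe-sets called lower. The classes were closer with other probe-sets, at 16 mitosis and 11 replication genes with IMO-8400 and 14 and 7 with IMO-3100 by the mean of a gene's probe-sets, and at 17 and 12 with IMO-8400 and 16 and 8 with IMO-3100 by the dimmest. All 22 mitosis genes passed the FDR with each antagonist, at backgrounds of 13.2% for IMO-8400 and 14.4% for IMO-3100. In all 22 the 5 treated mice lay below the 5 saline mice, at backgrounds of 12.8% and 11.6%. The medians were -1.29 with IMO-8400 and -1.18 with IMO-3100, falls of 2.45-fold and 2.27-fold, where those of the replication genes were 1.82-fold and 1.71-fold. The 13 DEGs with IMO-3100 were all among the 18 DEGs with IMO-8400, and 4 mitosis genes, Kif23, Top2a, Mki67 and Ttk, were DEGs with neither. Among replication genes 3 were DEGs with both, 3 with IMO-8400 only and 16 with neither.

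Among the genes with the largest changes were 3 mitotic kinases. Bub1, a kinase of the spindle assembly checkpoint, lay at 7.14, 6.86, 8.15, 7.11 and 7.71 in IMO-8400 mice and at 7.52, 7.90, 8.06, 8.04 and 7.88 in IMO-3100 mice, against 9.90, 9.83, 9.44, 8.62 and 9.05 in saline mice. At the brightest probe-sets it had the largest fall of the 44 genes with IMO-8400 (log2 fold change -1.97, SE 0.34, adjusted p = 0.000493) and fell with IMO-3100 as well (log2 fold change -1.49, SE 0.34, adjusted p = 0.00397). Plk1 lay at 6.46, 5.92, 6.77, 5.47 and 6.52 in IMO-8400 mice and at 5.55, 5.47, 5.42, 5.35 and 5.74 in IMO-3100 mice, below the 7.01 to 8.37 of saline mice. Its change was the largest of the 44 genes at these probe-sets with IMO-3100 (log2 fold change -2.29, SE 0.39, adjusted p = 0.000544) and smaller in fitted size with IMO-8400 (log2 fold change -1.57, SE 0.39, adjusted p = 0.00605). Aurka, the kinase of spindle poles, lay at 7.76, 7.46, 8.10, 7.34 and 8.28 in IMO-8400 mice (log2 fold change -1.67, SE 0.28, adjusted p = 0.000419) and at 7.67, 7.65, 7.24, 7.31 and 7.39 in IMO-3100 mice (log2 fold change -2.01, SE 0.28, adjusted p = 0.000122), against 8.55, 9.53, 9.93, 9.65 and 9.64 in saline mice. Saline replicate 1 was low in Aurka and Plk1, yet above all treated mice.

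Genes of the kinetochore and of mitotic exit changed by similar amounts. Cenpe lay at 8.32, 7.71, 8.64, 8.30 and 8.85 in IMO-8400 mice (log2 fold change -1.68, SE 0.32, adjusted p = 0.00103) and at 8.63, 8.61, 7.96, 8.15 and 8.11 in IMO-3100 mice (log2 fold change -1.75, SE 0.32, adjusted p = 0.000889), against 9.62 to 10.31 in saline mice. Cenpf, a large kinetochore protein, lay at 7.31, 7.31, 8.45, 8.17 and 8.19 in IMO-8400 mice (log2 fold change -1.54, SE 0.30, adjusted p = 0.00141) and at 8.02, 8.10, 7.78, 8.04 and 7.90 in IMO-3100 mice (log2 fold change -1.46, SE 0.30, adjusted p = 0.00236), against 9.52, 9.56, 9.55, 9.29 and 9.19 in saline mice. Cdc20, which activates the anaphase-promoting complex, lay at 10.35, 10.03, 10.86, 10.13 and 10.70 in IMO-8400 mice (log2 fold change -1.18, SE 0.23, adjusted p = 0.00116) and at 9.72, 10.06, 9.80, 10.04 and 9.97 in IMO-3100 mice (log2 fold change -1.68, SE 0.23, adjusted p = 9.97e-05), against 11.17, 11.65, 11.96, 11.52 and 11.68 in saline mice. In all 3 genes the lowest saline mouse was above the highest treated mouse. The other DEGs with both antagonists were Cdk1, the kinase that starts mitosis (-1.47 with IMO-8400 and -1.43 with IMO-3100), its partner cyclin B2 (Ccnb2, -1.20 and -1.17 in the same order), Aurkb, the checkpoint kinase Bub1b, the cytokinesis motor Kif20a, the inhibitor of apoptosis and passenger protein Birc5, and the spindle assembly factor Tpx2. Those with IMO-8400 only were Ccna2 (cyclin A2), the spindle motor Kif11, the microtubule-binding protein Nusap1, the cytokinesis regulator Ect2 and the midzone protein Prc1, with values from -1.50 (Kif11) to -1.02 (Prc1) for IMO-8400 and from -0.995 (Kif11, just under the threshold) to -0.70 (Ect2) for IMO-3100.

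Mki67 and Top2a did not reach the FCH threshold, although neither overlapped with saline. Mki67 lay at 12.00, 11.40, 12.19, 11.81 and 12.07 in IMO-8400 mice (log2 fold change -0.95, SE 0.19, adjusted p = 0.0019) and at 11.97, 12.03, 11.52, 12.00 and 11.92 in IMO-3100 mice (log2 fold change -0.95, SE 0.19, adjusted p = 0.00204), against 12.80 to 12.92 in saline mice. Top2a lay at 10.84, 10.55, 11.43, 11.01 and 11.23 in IMO-8400 mice (log2 fold change -0.99, SE 0.20, adjusted p = 0.00142) and at 11.05, 11.19, 10.97, 11.17 and 11.06 in IMO-3100 mice (log2 fold change -0.92, SE 0.20, adjusted p = 0.00271), against 11.81 to 12.25 in saline mice. At the brightest probe-sets the smallest change of the class was that of the checkpoint kinase Ttk, -0.80 with IMO-8400 and -0.67 with IMO-3100.

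**Figure D3:**
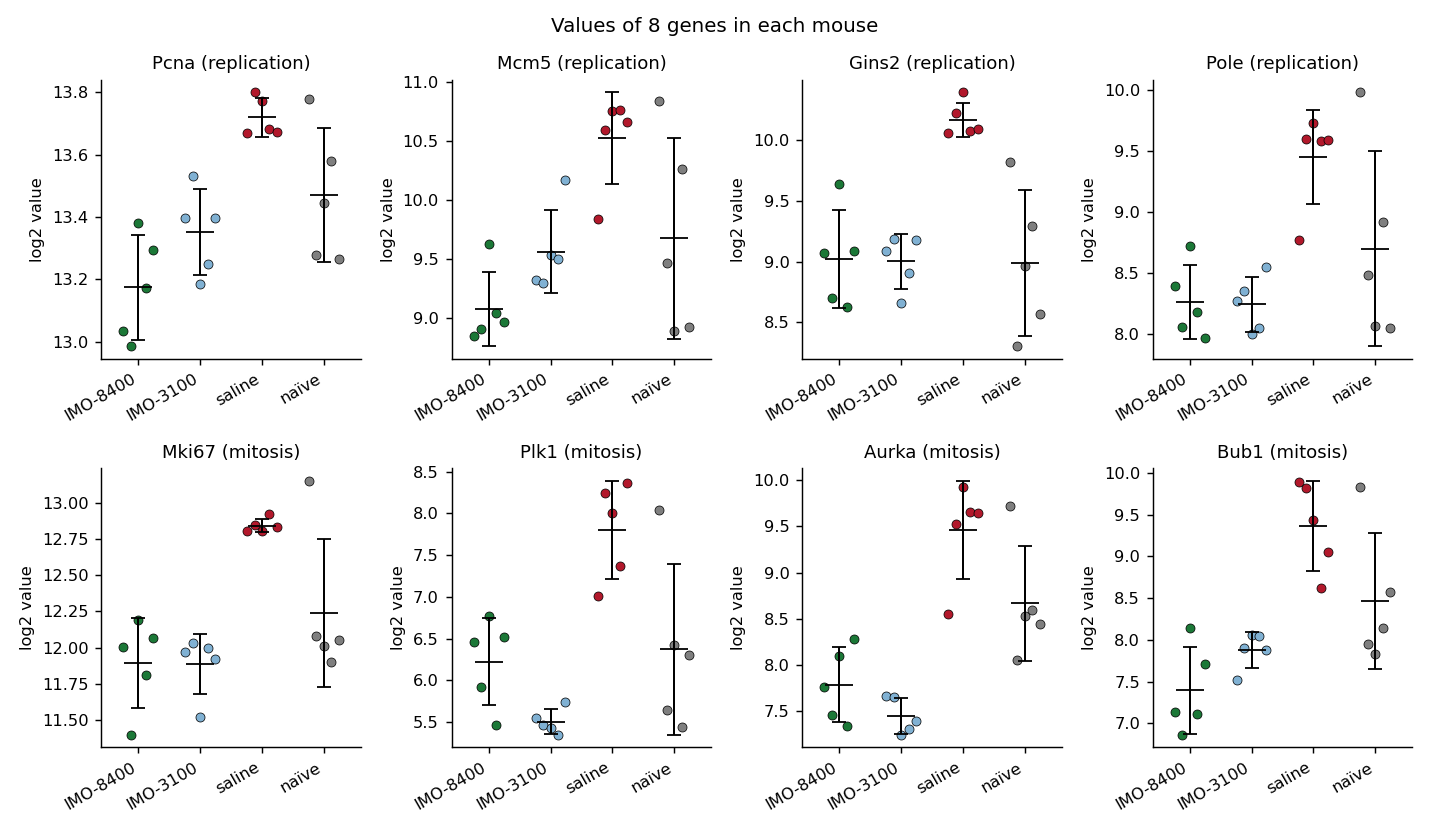
Deposited log2 values (y axis, own range for each gene) of 4 replication and 4 mitosis genes in each of 5 mice a group, with group mean and SD (black). Pcna, Gins2, Pole, Mki67, Plk1, Aurka and Bub1 have no treated mouse at or above a saline mouse, and Mcm5 has 1, IMO-3100 replicate 5.

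Means of single mice describe the same contrast of the 2 classes at the same brightest probe-sets, and are not separate support for it. The centred mean of the replication genes was -0.31 ± 0.20 in IMO-8400 mice, -0.18 ± 0.13 in IMO-3100 mice, 0.55 ± 0.12 in saline mice and -0.06 ± 0.50 in naïve mice (SD, n = 5 each). For the mitosis genes it was -0.48 ± 0.36, -0.42 ± 0.08, 0.83 ± 0.18 and 0.07 ± 0.59 in the same order of groups. The highest treated mouse, IMO-8400 replicate 3, reached 0.03 and -0.06 in the 2 classes, and the lowest saline mice were at 0.38 and 0.65. The mitosis mean minus the replication mean lay between -0.44 and -0.14 in the 5 IMO-3100 mice and between 0.13 and 0.41 in the 5 saline mice. In IMO-8400 mice it was negative in 4 of 5 and 0.13 in replicate 5, the mouse of this group with the highest hair mean. The part of hair follicle tissue in this value was not tested. In naïve mice it ran from -0.42 in replicate 4, where replication genes were high and mitosis genes were not, to 0.47 in replicate 5. No test was made between the classes, since genes are not replicates.

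The 2 antagonists were given at the same dose and on the same days, and no replication or mitosis gene passed the test between them. IMO-8400 against IMO-3100 gave 0 of 44 DEGs and 0 at the FDR alone in limma, at backgrounds of 0.578% and 3.76% of all tested probe-sets in either direction, and 4 genes had an unadjusted p under 0.05. The medians were -0.14 for replication and -0.06 for mitosis genes. The second had no settled direction, as it was -0.16 without IMO-8400 replicate 3 and 0.06 without IMO-8400 replicate 2. Pola1 had the smallest p of the replication genes and was lower with IMO-8400 (log2 fold change -0.74, SE 0.23, adjusted p = 0.0794), with an interval of -1.23 to -0.25. Its 5 IMO-8400 values lay below its 5 IMO-3100 values. Ect2, a regulator of cytokinesis, had the smallest p of the mitosis genes, at 8.65, 8.14, 9.32, 8.85 and 9.31 in IMO-8400 mice, against 9.18, 9.24, 9.98, 9.70 and 9.41 in IMO-3100 mice (log2 fold change -0.65, SE 0.25, adjusted p = 0.134, interval -1.16 to -0.13). The other 2 were Mcm7 and Cdc20, both higher with IMO-8400 (0.44 and 0.50). The smallest differences were those of Mcm4 (-0.0037, interval -0.33 to 0.32) and Mki67 (0.01, interval -0.40 to 0.42). The half-width of the 95% interval had a median of 0.46 over the members, so that a typical gene could differ by that much on the log2 scale. The interval uses 1 spread shared by all 4 groups, naïve mice included. The median SD of replication and mitosis genes was 0.24 and 0.40 in IMO-8400 mice and 0.19 and 0.18 in IMO-3100 mice. In naïve mice it was 0.50 and 0.60. The larger count of DEGs with IMO-8400 is a count at a threshold, and no gene in it was shown to differ between the antagonists.

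Against naïve skin, treated skin had lower levels of a few mitosis genes, whose calls as DEGs were lost without naïve replicate 1. With IMO-8400, 0 replication and 3 mitosis genes were lower DEGs, at a background of 2.43%, and 8 genes passed the FDR alone, at a background of 8.83%. With IMO-3100, 0 and 2 were, at a background of 4.55%, and 6 passed the FDR alone, at a background of 15.3%. Tyms, near the lowest value of the arrays in most of these mice, was among the 6. Both counts with IMO-3100, out of 44 genes, were close to their backgrounds. The DEGs were Aurkb, Kif11 and Bub1 with IMO-8400 and Aurka and Aurkb with IMO-3100. Aurkb lay at 7.91, 7.78, 8.53, 7.37 and 8.23 in IMO-8400 mice (log2 fold change -1.15, SE 0.26, adjusted p = 0.00635) and at 7.81, 7.87, 7.82, 8.43 and 8.14 in IMO-3100 mice (log2 fold change -1.09, SE 0.26, adjusted p = 0.00511), against 10.02, 8.33, 8.69, 9.09 and 9.42 in naïve mice. Kif11 lay at 8.15, 7.79, 8.97, 8.28 and 8.85 in IMO-8400 mice, against 10.82, 9.15, 8.71, 9.23 and 9.51 in naïve mice (log2 fold change -1.08, SE 0.30, adjusted p = 0.0191). The treated and naïve mice overlapped in both genes. Bub1 was -1.07 in IMO-8400 mice relative to naïve mice (adjusted p = 0.0349) and Aurka -1.22 in IMO-3100 mice (adjusted p = 0.00392). In Aurka the 5 IMO-3100 mice lay below the 5 naïve mice. Without naïve replicate 1 the values were -0.92 (Aurkb), -0.74 (Kif11) and -0.73 (Bub1) with IMO-8400, and -0.96 (Aurka) and -0.87 (Aurkb) with IMO-3100. Bub1 lost its call in 5 of 10 fits with 1 mouse left out. Of the replication genes, Rrm2 had the smallest p with IMO-8400 (-0.40, adjusted p = 0.0495) and Mcm7 with IMO-3100 (-0.68, adjusted p = 0.00301). The median log2 fold changes were -0.25 for replication and -0.50 for mitosis genes with IMO-8400, and -0.12 and -0.48 with IMO-3100. Without naïve replicate 1 they were -0.06 and -0.28 with IMO-8400, and 0.09 and -0.24 with IMO-3100, where that of the replication genes turned its sign, as it did with the hair mean as a covariate (0.08). Without naïve replicate 1, and likewise with the hair mean as a covariate, 0 members were DEGs with either antagonist. Hair means ran from 3.41 to 6.25 in IMO-8400 mice and from 3.28 to 3.49 in IMO-3100 mice, against 3.87 to 12.86 in naïve mice. Here too the covariate and the group can not be fully told apart. With IMO-8400, 0 mitosis genes were DEGs in a fit of the 2 groups alone or with the mean of a gene's probe-sets, and 1 was without IMO-8400 replicate 2 or 4. The smallest changes were those of Gins2 and Cenpe with IMO-8400 (0.04 and 0.01) and of Ccne1 and Cenpe with IMO-3100 (0.00 and -0.06).

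The probe-set that stood for a gene mattered for the size of its change. In 33 genes more than 1 probe-set was present, at most 5, and 85 of the 97 probe-sets were tested. Counted over all 85, 47 were lower DEGs with IMO-8400 and 35 with IMO-3100 against saline, and 16 were higher in saline than in naïve mice. The backgrounds were 3.59%, 3.73% and 7.58% of all tested probe-sets in the same order. Rrm2 was the clearest case. Its brightest probe-set changed by -0.48 with IMO-8400, -0.38 with IMO-3100 and 0.09 between saline and naïve mice, and its dimmest by -2.36, -2.68 and 1.64. For cyclin E1 (Ccne1), which with Cdk2 starts S phase, the values of the same 3 comparisons were -0.87, -0.61 and 0.61 at the brighter probe-set and -2.05, -1.93 and 1.65 at the dimmer one. Kif11 changed by -1.50, -0.995 and 0.43 at its brightest probe-set and by -2.39, -2.22 and 1.60 at the dimmest one. The direction was the same at these probe-sets of each gene, and the call differed between them except for Kif11 with IMO-8400.

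Disagreement did not always run one way. Among 29 genes with at least 2 probe-sets of a mean of 4 or more, the dimmest had the larger change in 18 with IMO-8400, 17 with IMO-3100 and 19 between saline and naïve mice. Further genes with a call at one probe-set and not at another were Mcm2, Mcm3, Mcm5, Cdt1, Fen1, Gins1, Bub1, Bub1b, Cenpf and Kif23 with both antagonists, Rrm1, Gins2 and Ccna2 with IMO-3100 only, and Rfc4, Nusap1 and Prc1 with IMO-8400 only. Bub1, Bub1b and Cenpf had such a call missing at a probe-set with a mean over 20 arrays of 2.2, 3.3 and 2.1, near the lowest value, and so had Mcm5 (2.1), whose other probe-sets were both called with IMO-8400. Between saline and naïve mice the call differed among the probe-sets of 12 genes, which besides Rrm2, Ccne1 and Kif11 were Mcm3, Mcm5, Cdt1, Gins1, Rfc3, Cdc20, Bub1b, Cenpe and Tpx2. With the dimmest probe-set of at least 4 in place of the brightest, 12 replication genes were lower DEGs with IMO-8400 and 8 with IMO-3100. With the mean of all tested probe-sets of a gene, 11 and 7 were. The dimmest probe-set was taken up after the values had been seen, and under both choices the counts of mitosis genes against saline stayed within 1.5 times of those at the brightest probe-set.

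**Figure D4:**
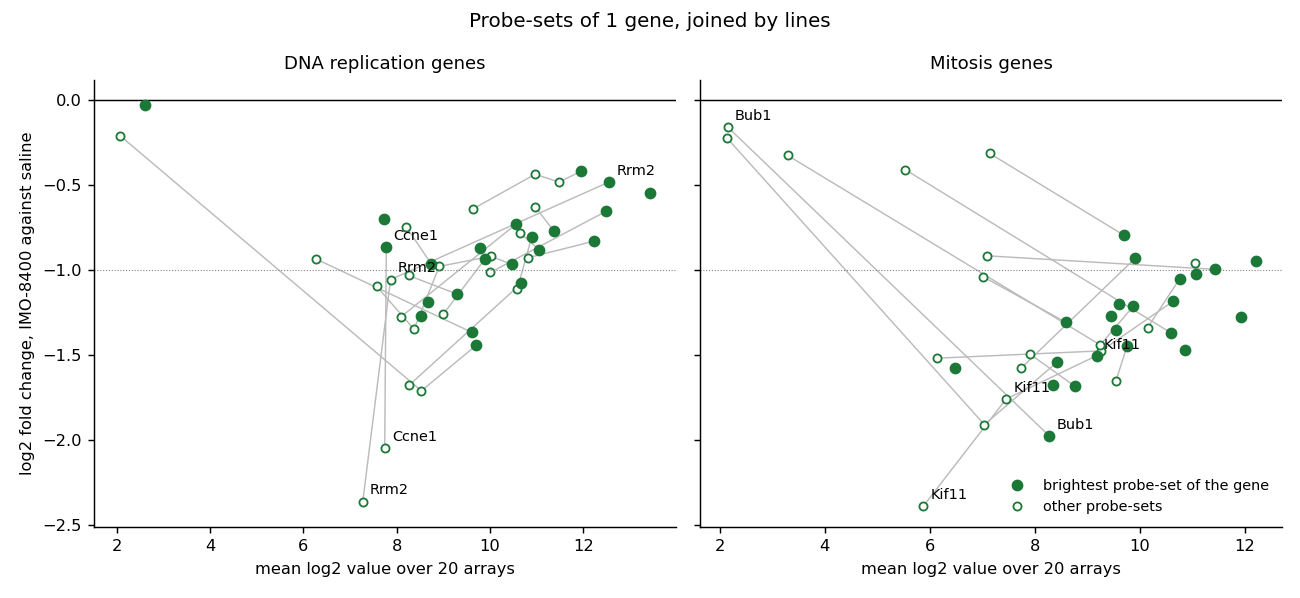
Log2 fold change with IMO-8400 against saline (y axis) by the mean log2 value over 20 arrays (x axis) for each tested probe-set of the replication (left) and mitosis genes (right), with probe-sets of a gene joined by a line and the brightest filled. The probe-sets of Rrm2 span from -0.48 to -2.36 and those of Ccne1 from -0.87 to -2.05.

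Part of the other genes of the 2 processes also fell with each antagonist. Of 34 tested further replication factors, 10 fell with IMO-8400 and 10 with IMO-3100, at backgrounds of 3.59% and 3.73%, with medians of -0.68 and -0.74. In saline relative to naïve mice 3 of the 34 were higher, near the background of 7.58%, with a median of 0.37. The histone chaperone subunit Chaf1b changed by -1.60 with IMO-8400 and -2.01 with IMO-3100, the helicase activator Cdc45 by -1.24 and -1.56, the checkpoint mediator Clspn by -1.50 and -1.46, and the initiation factor Mcm10 by -1.76 and -1.33. Of 53 tested further mitosis factors, 34 fell with IMO-8400 and 33 with IMO-3100, and 17 were higher in saline than in naïve mice, with medians of -1.26, -1.20 and 0.68 and at the same backgrounds. Among them were Sgo1, which protects the cohesion of centromeres (-2.13 with IMO-8400 and -1.77 with IMO-3100), the kinetochore protein Ndc80 (-1.94 and -1.81) and the kinesin Kif18a (-2.01 and -1.70). Between the antagonists 0 genes of either list passed the test in limma, and 1 and 3 had an unadjusted p under 0.05.

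Of 40 tested regulators of G1, of the G1/S transition and of checkpoints, 3 fell with IMO-8400 and 4 with IMO-3100, at backgrounds of 3.59% and 3.73%. In saline relative to naïve mice 1 was higher and 2 were lower, both shares below their backgrounds of 7.58% and 8.92%. The medians were -0.12, -0.17 and -0.03 in the same order. The genes that fell included the repressor E2f7 (-2.30 with IMO-8400 and -2.74 with IMO-3100), the checkpoint kinase Chek1 (-1.73 and -1.14) and Foxm1 (-1.27 and -1.56), the activator of mitosis genes, and with IMO-3100 also E2f8 (-1.15). Chek1 was higher in saline mice (1.22), while the inhibitor of Cdk4 and Cdk6 Cdkn2c (-1.34) and cyclin D2 (Ccnd2, -1.03) were lower.

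Markers of some other tissue parts moved in the same direction as these genes, and those of others did not. The backgrounds were 7.58% called higher and 8.92% called lower in saline than in naïve mice. Against saline they were 3.59% lower and 4.46% higher with IMO-8400, and 3.73% lower and 2.69% higher with IMO-3100. Of 6 markers of hyperplastic epidermis, among them Serpinb3a, Krt6b, Sprr2f and Krt16, 6 were higher in saline than in naïve mice, and 4 were lower with IMO-8400 and 5 with IMO-3100 than in saline mice. Their mean was 10.75 to 12.24 in IMO-8400 mice, 9.74 to 12.68 in IMO-3100 mice, 13.36 to 13.74 in saline mice and 7.20 to 8.88 in naïve mice. Naïve replicate 1, in which replication and mitosis genes were highest, had a value of 7.30 in it, among the low naïve mice. Of 6 T cell markers, 5 were higher in saline than in naïve mice, and 2 fell with IMO-8400 and 3 with IMO-3100. With each antagonist 1 of the 6 had a fitted value above 0, of 1.06 with IMO-8400 and 1.19 with IMO-3100, and was not a DEG. Their mean was 9.60 to 10.10 in IMO-8400 mice, 9.21 to 9.94 in IMO-3100 mice, 10.09 to 10.54 in saline mice and 6.35 to 8.91 in naïve mice. Of 5 neutrophil markers, 5 were higher in saline than in naïve mice, and 4 fell with IMO-8400 and 3 with IMO-3100. Of 5 markers of cytotoxic and NK cells, 4 were higher in saline than in naïve mice, and 2 fell with IMO-8400 and 1 with IMO-3100. Of 8 basal keratinocyte markers 0 were DEGs with either antagonist in limma, with 4 at an unadjusted p under 0.05 for each, and 1 was lower in saline than in naïve mice. Markers of macrophages (6), fibroblasts (6) and endothelium (4) also had 0 DEGs with either antagonist, with an unadjusted p under 0.05 in 0, 0 and 1 of them with IMO-8400 and in 0, 0 and 3 with IMO-3100. In saline relative to naïve mice 2 macrophage markers were higher and 1 was lower, and 0 fibroblast and 0 endothelium markers were DEGs. Of the 2 tested B cell markers, both were higher in saline than in naïve mice and 0 were DEGs with an antagonist, where 1 had an unadjusted p under 0.05 with IMO-3100. Adipocyte markers went the other way, as 4 of 4 were lower in saline than in naïve mice and 2 were higher with each antagonist than with saline, at backgrounds of 8.92% lower in saline mice, 4.46% higher with IMO-8400 and 2.69% higher with IMO-3100. Of 5 skeletal muscle markers 1 was lower in saline than in naïve mice and 1 was higher with IMO-8400 than with saline. The hair markers were lower in saline than in naïve mice in 21 of 22. With each antagonist 1 of the 22 was higher than with saline, close to the background of 4.46% for IMO-8400. The melanocyte markers were lower in saline mice in 5 of 5 and changed with an antagonist in 0, also at an unadjusted p under 0.05. The part of each cell type in the changes of the replication and mitosis genes was not tested.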

How the data were processed

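The authors deposited expression values on the log2 scale, made with GCRMA from Affymetrix arrays after the scans were checked for defects; the GCRMA version was not given in the sources used here. They were used without further normalization. Lowest and highest values were 2.02 and 15.8, and array medians 6.09 to 6.29. GCRMA gives probe-sets without signal a value near the lowest one, and the table holds no detection calls, so that values below 3 were read as near background. Of 45101 probe-sets, 34958 had a single gene symbol, 932 several and 9211 none. As in the authors' methods, only probe-sets that exceeded 2 in 3 or more arrays and had an SD over 0.1 entered the test (30960, 85 of the 97 of the genes described). Means of the 4 groups were estimated by lmFit and eBayes of limma 3.58.1 under R 4.3.3, with Benjamini-Hochberg adjustment over all tested probe-sets, and the procedure was tested on simulated data. The 4 groups share 1 estimate of the spread of a gene, so that each SE and interval also reflects the naïve mice. A gene was represented by its probe-set with the highest mean over the 20 arrays. Groups come from the sample labels, replicates were numbered 1 to 5 in each group with no pairing, and the number of arrays limits the precision.

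The genes and lists were chosen with earlier results of these data known. Values per mouse are given for Mki67, Top2a, Pcna and Mcm2 and, in each comparison and class, for up to 5 DEGs with the largest change or, with none, the gene with the smallest p. Genes whose probe-sets differ in the call and genes with the smallest change are given by fold change or by name. Alternatives were no filter, a stricter filter (over 4 in 5 or more arrays), a floor of 4, scaling to a common 75th percentile, quantile normalization, a fit of the 2 groups alone, a trended robust prior, the hair gene mean as a covariate, the mean of a gene's probe-sets, the FDR alone, each mouse left out and, added after seeing the data, the dimmest probe-set of mean 4 or more and naïve replicates 1 to 3 left out. Promoter windows are RefSeq (GRCm38.p6).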

Additional observations from a re-analysis of the deposited data

Results flagged for a closer look

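Single mice lay apart from the other 4 of their group in 13 of the 92 gene and group combinations looked at, judged by the gap to the nearest mouse relative to the range of the group. Chance sets about 1 in 20 groups apart, here 4.6, and the mice recur across genes that vary together, so these are not independent.

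In the IMO-8400 group, replicate 3 was high in 2 helicase subunits, with Mcm2 at 10.07 against 9.40 to 9.48 in the other mice and Mcm5 at 9.63 against 8.85 to 9.05. In the IMO-3100 group, replicate 5 was high in the same genes, with Mcm2 at 9.96 against 9.59 to 9.67 and Mcm5 at 10.17 against 9.30 to 9.54. Replicate 3 of that group was low in Mki67, at 11.52 against 11.92 to 12.03. Among saline mice, replicate 1 was low in replication genes, with Pole at 8.77 against 9.58 to 9.72, Mcm5 at 9.84 against 10.60 to 10.76 and Mcm7 at 11.97 against 12.37 to 12.47. Among naïve mice, replicate 1 was high in Mki67 (13.15 against 11.90 to 12.08), Top2a (12.49 against 11.26 to 11.50), Cdc20 (11.64 against 10.28 to 10.49), Cenpf (9.94 against 7.99 to 8.21) and Mcm7 (12.77 against 11.87 to 12.12).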

How the results depend on the processing

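The alternatives were run for the 28 fold changes of DEGs that the rule for named genes picks by size. These kept their sign under every alternative run, and 521 of 570 values kept their side of the thresholds. The medians of both classes moved by less than the spread between mice in all 246 alternatives, although those of IMO-3100 against naïve for replication genes and of IMO-8400 against IMO-3100 for mitosis genes, both near 0, changed sign (0.09 without naïve replicate 1 and 0.08 with the hair covariate, and 0.06 without IMO-8400 replicate 2), and 316 of 375 counts of DEGs stayed within 1.5 times of their value. The exceptions are given here in the order probe-sets, replication genes, mitosis genes, and the cause was not tested. By the FDR alone the counts were 56, 16 and 16 for saline against naïve, 76 probe-sets and 20 replication genes for IMO-8400 against saline, 73, 19 and 22 for IMO-3100 against saline, 10, 1 and 7 for IMO-8400 against naïve, and 10, 2 and 4 for IMO-3100 against naïve, as no fold change is asked for. With the hair gene mean as a covariate they were 41, 7 and 14 for saline against naïve, and 0 probe-sets and 0 mitosis genes for each antagonist against naïve. With the mean of a gene's probe-sets, 11 replication genes (IMO-8400 against saline), 7 (IMO-3100 against saline) and 4 mitosis genes (saline against naïve), 0 (IMO-8400 against naïve) and 1 (IMO-3100 against naïve) were called. With the dimmest probe-set it was 12 and 8 replication genes for IMO-8400 and IMO-3100 against saline, 5 and 5 genes of the 2 classes for saline against naïve, and 1 mitosis gene for IMO-3100 against naïve. For IMO-8400 against naïve, 2 probe-sets were called without a filter, and 0 probe-sets and 0 mitosis genes in a fit of the 2 groups alone. Without naïve replicates 1 to 3, 26 probe-sets and 9 mitosis genes were called for saline against naïve, and 1 and 1 for IMO-8400 against naïve.

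With single mice left out, counts for saline against naïve ran from 10 to 37 probe-sets, 1 to 6 replication and 2 to 12 mitosis genes, with the highest values without naïve replicate 1, 10 probe-sets and 1 replication gene without naïve replicate 2, 1 replication gene without naïve replicate 5 or saline replicate 3, and 5 and 4 mitosis genes without saline replicates 1 and 4. For IMO-8400 against saline they ran from 40 to 56, 5 to 9 and 16 to 20, and for IMO-3100 against saline from 31 to 41, 2 to 5 and 13 to 15, with 5 replication genes without saline replicate 1. For IMO-8400 against naïve they ran from 0 to 7 probe-sets and 0 to 4 mitosis genes, with 2, 1, 2 and 7 probe-sets without IMO-8400 replicates 1, 2, 4 and 5. For IMO-3100 against naïve they ran from 0 to 4 and 0 to 3, the highest without naïve replicate 4, and for both the lowest were without naïve replicate 1. Between the antagonists they stayed at 0. No paired analysis was possible because replicate numbers were given in accession order and pair no mice. With 5 arrays a group, differences below about 0.46 on the log2 scale were within the interval of a typical gene.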
